A study of Mus musculus with 6 samples.

Results

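Hepatic glycolysis and fructolysis depend on genes for sugar uptake, regulation and enzymes, and 8 of them were followed here: Slc2a2, Gckr, Khk, Pfkl, Pfkfb1, Pfkfb3, Pklr and Gpi1. They were taken by name, after the Ensembl identifiers of the count table had been matched to symbols in GENCODE M21. Of the 8, 7 had a row among the 20894 genes of the table and all 7 passed the filter on low counts. Slc2a2, which encodes the hepatocyte glucose transporter, was not analysed here.

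Whole liver RNA of 6 samples from mice carrying the Irf3LSL-2D allele was sequenced after poly-A selection. In such an allele a stop cassette between loxP sites keeps a constitutively active form of IRF3, a transcription factor of the antiviral response, silent until Cre removes it. The IRF3-2D group (3 samples) comes from mice that received Cre in an adeno-associated virus, AAV8-TBG-Cre, and the Ctrl group (3 samples) from mice that received AAV8-TBG-GFP. TBG is a promoter active in hepatocytes. Both groups were given ethanol at 3 g/kg intraperitoneally and were sampled 2 h later, so the comparison holds no liver without ethanol and none with Cre but without the allele. What Cre or GFP does on its own and what active IRF3 does cannot be told apart. The sources used here give no sex or age.

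Glycolysis splits glucose into pyruvate, and in liver it runs against glucose production, so its flux is set at a few regulated steps. Gckr encodes a regulatory protein of hepatic glucose use, while the bifunctional PFKFB enzymes set the level of the fructose bisphosphate that switches phosphofructokinase on. Fructose bypasses that control point: ketohexokinase, encoded by Khk, phosphorylates it and starts its breakdown. ChREBP, the factor encoded by Mlxipl, raises Pklr and other genes of this route when carbohydrate is plentiful.

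The libraries held 12054096 to 14830629 counts, and levels are given as CPM (counts scaled to a common library size) after TMM scaling, which allows for the few very abundant transcripts that take up part of each library. The TMM factors lay between 0.822 and 0.879 for Ctrl libraries and between 1.12 and 1.23 for IRF3-2D libraries. This choice matters for small changes: the median log2 fold change of the 10802 tested genes was 0.03 with TMM and 0.49 with library totals alone. The summed hepatocyte markers ranged from 162299 to 216041 CPM over Ctrl libraries and from 95938 to 107306 CPM over IRF3-2D libraries. Alb was the most abundant of them. Of 15 tested, 8 were called lower and 3 higher (5 lower and 4 higher with library totals alone). Tat fell 3.47-fold and Serpina1c, which shares 82.2% of its 31-base words with other genes, fell 2.23-fold. Irf3 itself, which carries the allele, was at 49.8 ± 9.35 CPM in Ctrl and rose to 120 ± 15.3 CPM (mean ± SD of 3 libraries). Of the other genes in the series title Polr2g rose 6.41-fold and Fgf21 fell 11.1-fold. Fgf21 had 85, 91 and 90 counts in Ctrl and only 1, 14 and 14 in IRF3-2D, so its fold is imprecise (95% interval of the log2 fold change -5.07 to -1.87). Several genes that liver uses heavily were listed close to 0 in all libraries, Fbp1 at 6 to 12 counts and Gpd1 at no more than 3, so other listed values too may leave out some of the transcripts of a gene.

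Among the 7 measured genes 1 changed: Pfkfb3 fell 3.85-fold in IRF3-2D liver. None was called higher by edgeR's quasi-likelihood test at a Benjamini-Hochberg adjusted p under 0.05, and 1, Pfkfb1, was called higher by DESeq2 and by limma-voom. At an unadjusted edgeR p under 0.05, 2 of the 7 passed, Pfkfb3 and Pfkfb1. The share of all tested genes at that unadjusted threshold was not counted, so this count has no background beside it. At the adjusted threshold edgeR called 26.3% of all tested genes (13.2% higher and 13.1% lower), against 14.3% of these 7, a share below that background. The median log2 fold change of the 7 was -0.17. The groups did not overlap for 2 of the 7, Pfkfb3 and Pfkfb1, against 44.9% of all tested genes (23.7% with IRF3-2D above Ctrl and 21.2% below).

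**Figure D1:**
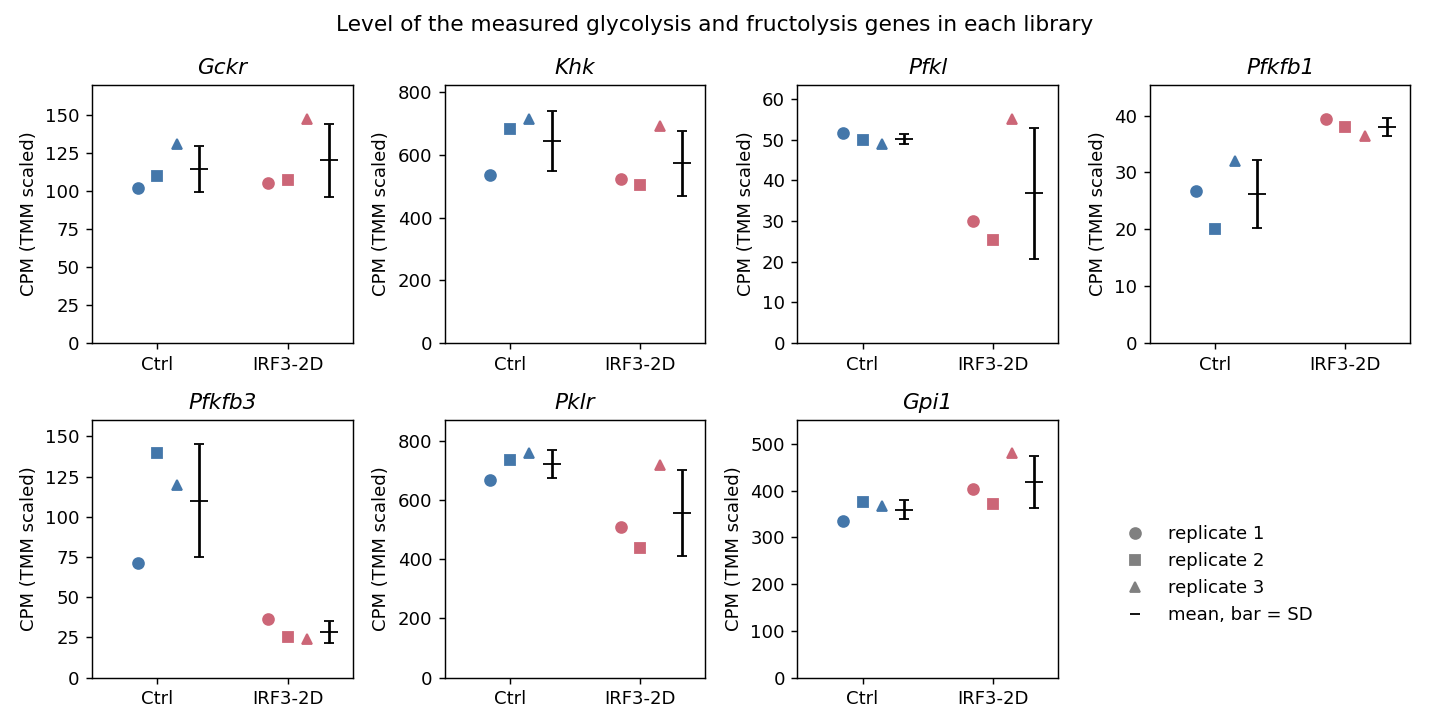
Level of each of the 7 measured genes (y axis, CPM with TMM scaling, from 0) in every library of the Ctrl and IRF3-2D groups (x axis). Symbols mark the replicate and black bars give mean and SD of 3 libraries. Pfkfb3 lies at 24.3 to 36.4 CPM in IRF3-2D against 71.0 to 139 in Ctrl, while Pfkl and Pklr of IRF3-2D replicate 3 lie within or above the Ctrl libraries.

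Of the regulators of phosphofructokinase, Pfkfb3 fell and Pfkfb1 did not pass the test. Pfkfb3 (ENSMUSG00000026773, chromosome 2, 11471433 to 11554077, minus strand, GRCm38) encodes a bifunctional enzyme with high kinase activity, which makes the activating fructose bisphosphate. Its level was 71.0, 139 and 119 CPM in the Ctrl libraries and 36.4, 25.0 and 24.3 CPM in the IRF3-2D libraries. Every IRF3-2D library was below every Ctrl library, and the Ctrl libraries spread more widely (SD 35.2 CPM against 6.82). The log2 fold change was -1.94 (SE 0.28, 95% interval -2.59 to -1.30, adjusted p = 0.00273 by edgeR). Of all tested genes, 4.84% were called and more than 2-fold lower. Pfkfb3 has 21 annotated transcripts, so the fall may describe part of the gene's output.

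Pfkfb1 (ENSMUSG00000025271, chromosome X, 150588229 to 150643878, plus strand), the liver member of the family, whose enzyme is switched from kinase to phosphatase when glucagon acts, had a fold change of the opposite sign. Its level was 26.8, 20.02 and 32.0 CPM in the Ctrl libraries and 39.5, 38.0 and 36.4 CPM in the IRF3-2D libraries. All 3 IRF3-2D libraries stood above all 3 Ctrl libraries, with a log2 fold change of 0.53 (SE 0.16, 95% interval 0.15 to 0.92, adjusted p = 0.0517 by edgeR). The call was made with DESeq2 (adjusted p = 0.0410) and limma-voom (0.0422), and by edgeR without Ctrl replicate 3 (log2 fold change 0.69, adjusted p = 0.0259).

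Because both genes are read in the same library, their ratio hardly depends on how libraries are scaled. Per kilobase of merged exons and with 0.1 added to each gene, Pfkfb3 stood at 1.40, 3.65 and 1.97 times Pfkfb1 in the Ctrl libraries and at 0.495, 0.356 and 0.361 times in the IRF3-2D libraries. Pfkfb3 was thus the more abundant of the pair in every Ctrl library and the less abundant in every IRF3-2D library. The difference was -2.44 on the log2 scale, or 5.41-fold (exact permutation test, two-sided, p = 0.1, the smallest that 3 against 3 allows, and 0.4 when adjusted over 4 ratios).

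Other genes that make or remove regulatory fructose bisphosphates did not pass the test. Pfkfb2, which encodes a further bifunctional enzyme, was listed at 27.0, 32.1 and 41.7 CPM in Ctrl and 39.4, 44.1 and 41.7 CPM in IRF3-2D (log2 fold change 0.31, adjusted p = 0.193 by edgeR). Tigar, which encodes a fructose bisphosphatase, had a log2 fold change of 0.48 (adjusted p = 0.149 by edgeR) and did not overlap between the groups. In this list of 5 genes 3 were tested and 0 were called by edgeR, DESeq2 or limma-voom, with 0 at an unadjusted p under 0.05; 2 were called higher with library totals alone.

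RefSeq lists 2 start sites for Pfkfb3 and 2 for Pklr on GRCm38.p6, and 3 of these windows are printed because they hold a motif linked to the regulators measured here. Each runs from 250 bases before to 50 bases after a start. The Pfkfb3 windows lie on the minus strand at chr2:11553880-11554179 (upstream start) and chr2:11502041-11502340 (downstream start), and the Pklr window of the downstream start, that of the liver enzyme, lies on the plus strand at chr3:89136373-89136672. Capitals mark matches, on either strand, to ACGTG (the core that hypoxia-inducible factors bind), to CACGTG (an E-box, which contains that core) or to CACG and CGTG with 9 bases between them (the spaced pair of partial E-boxes of a carbohydrate response element).
Pfkfb3 upstream start: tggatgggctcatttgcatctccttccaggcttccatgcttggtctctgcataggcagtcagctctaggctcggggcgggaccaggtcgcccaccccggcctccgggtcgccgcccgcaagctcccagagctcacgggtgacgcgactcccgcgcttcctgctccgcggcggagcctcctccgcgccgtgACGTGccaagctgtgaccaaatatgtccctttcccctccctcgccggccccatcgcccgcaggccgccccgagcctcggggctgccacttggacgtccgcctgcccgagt
Pfkfb3 downstream start: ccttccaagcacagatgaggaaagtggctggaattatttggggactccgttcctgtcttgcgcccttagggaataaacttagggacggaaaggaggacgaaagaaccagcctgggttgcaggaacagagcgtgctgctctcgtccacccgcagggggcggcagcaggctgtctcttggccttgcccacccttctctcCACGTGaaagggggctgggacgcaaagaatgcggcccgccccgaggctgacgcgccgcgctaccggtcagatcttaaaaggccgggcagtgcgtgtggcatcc
Pklr liver start: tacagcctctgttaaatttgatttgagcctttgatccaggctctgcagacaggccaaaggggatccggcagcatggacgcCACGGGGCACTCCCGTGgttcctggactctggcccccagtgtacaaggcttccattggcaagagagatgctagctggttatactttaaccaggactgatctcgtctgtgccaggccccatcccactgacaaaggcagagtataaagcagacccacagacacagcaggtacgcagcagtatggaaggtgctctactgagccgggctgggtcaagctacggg
The ACGTG of the upstream Pfkfb3 window begins 60 bases before the start and the CACGTG of the downstream window 53 bases before it. The spaced pair in the Pklr window, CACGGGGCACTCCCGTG, begins 170 bases before the start. Over 32851 windows of the same length, 19.6% held ACGTG, 7.15% held CACGTG and 0.28% held the spaced pair. Among the 13 windows of the 8 genes, 3 held ACGTG, 2 held CACGTG (the other in Khk, 71 bases before the start), 1 held the spaced pair and 0 held GAAA and a second GAAA with 2 bases between them, a core of the interferon response element found in 3.44% of all windows. Such matches are descriptions of these windows only.

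Pklr and Pfkl, the genes of the regulated enzymes themselves, lay below the Ctrl range in 2 of the 3 IRF3-2D libraries and not in the third. Pklr (ENSMUSG00000041237, chromosome 3, 89136142 to 89146784, plus strand) encodes the pyruvate kinase of liver and red cells, which makes pyruvate in the last step. It was measured at 666, 736 and 757 CPM in Ctrl and at 510, 437 and 718 CPM in IRF3-2D. The third IRF3-2D library lay within the Ctrl range and the other two below it. The log2 fold change of -0.38 (SE 0.18, 95% interval -0.80 to 0.05) did not pass the test (adjusted p = 0.175 by edgeR). Counts per gene do not separate the liver form from the red cell form, which start at different promoters.

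Pfkl (ENSMUSG00000020277, chromosome 10, 77986947 to 78010083, minus strand) encodes the liver subunit of phosphofructokinase, the enzyme that commits sugar to glycolysis. It was nearly constant in Ctrl at 51.5, 49.8 and 49.0 CPM and spread in IRF3-2D at 29.9, 25.2 and 55.2 CPM. The coefficient of variation was 2.60% in Ctrl and 43.8% in IRF3-2D, and the log2 fold change was -0.45 (SE 0.27, 95% interval -1.09 to 0.20, adjusted p = 0.274 by edgeR). IRF3-2D replicate 3 held the highest Pfkl and Pklr of its group, and without it both genes were called lower. Their log2 fold changes were then -0.87 (adjusted p = 0.00449 by edgeR) and -0.62 (0.0154). In that fit 3 of the 7 genes were lower, against 1260 of all 11163 tested genes.

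IRF3-2D replicate 3 was the highest of its group in 5 of the 7 genes (Gckr, Khk, Pfkl, Pklr and Gpi1), where 35.5% of all tested genes had it highest. Marker levels differed in the same library. Its summed Kupffer cell and macrophage markers were 1003 CPM against 1370 and 1352 in the other IRF3-2D libraries, its endothelial markers 356 against 480 and 461, and its stellate cell markers 190 against 231 and 270. Hepatocyte markers summed to 107306 CPM in it, against 106310 and 95938. The part of these levels in the values of Pfkl and Pklr was not tested.

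**Figure D2:**
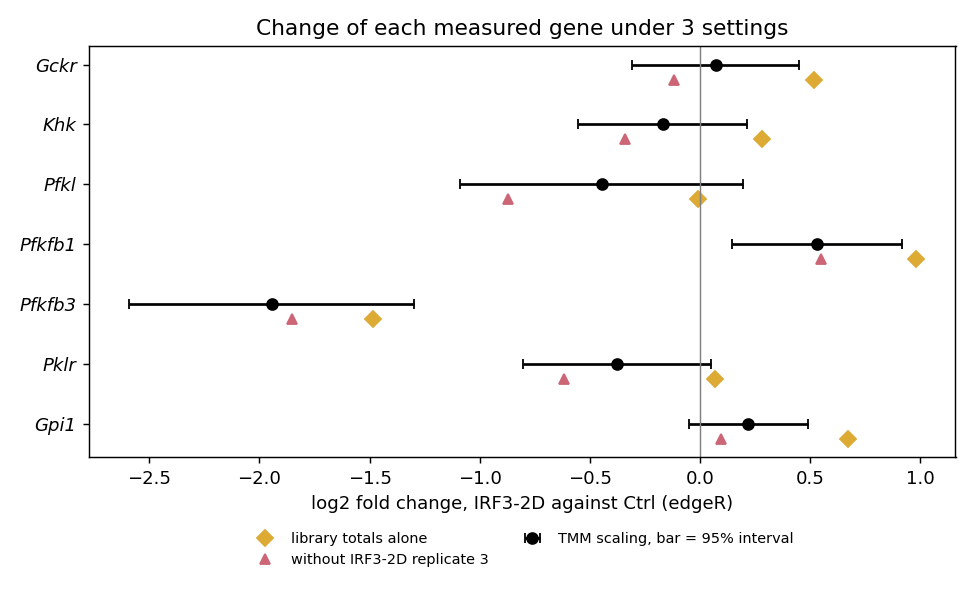
Log2 fold change of IRF3-2D against Ctrl (x axis) for the 7 measured genes (y axis), with the 95% interval of the TMM fit in black, the value with library totals alone as diamonds and the value without IRF3-2D replicate 3 as triangles. Pfkfb3 stays between -1.94 and -1.48 in these 3 settings, Pfkl and Pklr move to -0.87 and -0.62 without that library, and library totals alone shift every gene to the right.

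Gpi1, Gckr and Khk did not pass the test. Gpi1 (ENSMUSG00000036427, chromosome 7, 34201330 to 34230336, minus strand), which encodes the isomerase that turns glucose phosphate into fructose phosphate, was measured at 336, 376 and 367 CPM in Ctrl and 404, 372 and 480 CPM in IRF3-2D. Of the IRF3-2D libraries 1 lay within the Ctrl range and 2 above it, and the log2 fold change was 0.22 (SE 0.12, 95% interval -0.05 to 0.49, adjusted p = 0.208 by edgeR). Gpi1 shares 13.9% of its 31-base words with transcripts of other genes, so its counts are uncertain. The other 6 measured genes share at most 0.577%.

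Gckr (ENSMUSG00000059434, chromosome 5, 31297443 to 31327314, plus strand) was measured at 102, 110 and 131 CPM in Ctrl and 106, 107 and 148 CPM in IRF3-2D. The groups overlapped, with IRF3-2D replicate 3 above every Ctrl library, and the log2 fold change was 0.07 (95% interval -0.31 to 0.45, adjusted p = 0.778 by edgeR).

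Khk (ENSMUSG00000029162, chromosome 5, 30921431 to 30931248, plus strand) was measured at 535, 682 and 716 CPM in Ctrl and 522, 506 and 691 CPM in IRF3-2D. The groups overlapped, and the log2 fold change of -0.17 (95% interval -0.55 to 0.21, adjusted p = 0.485 by edgeR) leaves room for a fold of 0.682 to 1.16. The 2 enzyme forms of ketohexokinase differ by an alternative exon and are not separated by counts per gene.

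**Figure D3:**
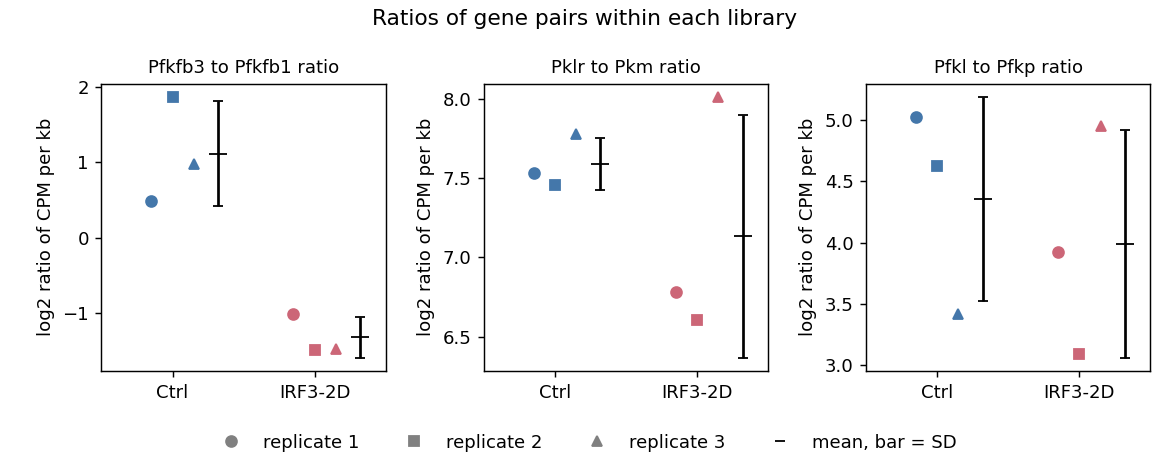
Log2 ratio of CPM per kilobase of 3 gene pairs (y axis, with 0.1 added to each gene) in every library of the Ctrl and IRF3-2D groups (x axis), with replicates as symbols and mean and SD of 3 libraries in black. The groups separate for Pfkfb3 to Pfkfb1, between 0.49 and 1.87 in Ctrl and between -1.49 and -1.01 in IRF3-2D, and overlap for the other 2 pairs.

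Liver-type genes were also set against the forms found in other cells, again per kilobase and after adding 0.1 to each gene. Pklr stood at 185, 176 and 219 times Pkm, the gene of the other pyruvate kinases, in Ctrl and at 110, 97.4 and 258 times in IRF3-2D (exact permutation test, two-sided, p = 0.4, adjusted p = 0.8). Pkm itself was listed at 5.29 ± 0.597 and 5.63 ± 1.59 CPM (SD, n = 3 each) and shares 34.7% of its 31-base words with other genes. Pfkp, the platelet form, was listed at only 0.140 to 0.595 CPM per kilobase, so the added 0.1 lowers its ratio and no fold is given. The log2 ratio of Pfkl to Pfkp lay between 3.42 and 5.03 in Ctrl and between 3.09 and 4.95 in IRF3-2D (exact permutation test, two-sided, p = 0.6, adjusted p = 0.8). Both pairs overlapped between the groups, and the liver form was the higher of each pair in all 6 libraries.

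The order of the levels per kilobase of merged exons changed only at its lower end. In Ctrl it ran Khk (359 ± 53.6 CPM per kilobase), Pklr (222 ± 14.7), Gpi1 (55.7 ± 3.23), Gckr (26.4 ± 3.48), Pfkfb3 (14.5 ± 4.66), Pfkl (7.51 ± 0.195) and Pfkfb1 (6.54 ± 1.49; SD, n = 3 each). The last of these neighbours, Pfkl and Pfkfb1, differed by less than the spread of Pfkfb1. In IRF3-2D the upper 4 kept that order and were followed by Pfkfb1 (9.45 ± 0.376), Pfkl (5.51 ± 2.41) and Pfkfb3 (3.78 ± 0.902; SD, n = 3 each), where Pfkl and Pfkfb3 differed by less than the spread of Pfkl. By mean level Pfkfb3 thus went from the place after Gckr to last. In IRF3-2D replicate 1 it was above Pfkl (4.82 against 4.49 CPM per kilobase).

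With library totals alone, Gckr, Pfkfb1 and Gpi1 were called higher (log2 fold changes 0.52, 0.98 and 0.67, against 41.7% of all tested genes called higher) and Pfkfb3 stayed lower (-1.48, against 5.29% called lower). These values stand beside the median of 0.49 over all tested genes under that scaling. Khk and Pklr changed sign there, to 0.28 and 0.07.

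Other genes of the route were drawn from 10 lists with 107 distinct genes, 103 of them with a row and 78 tested. Among the tested genes 26 were called lower and 5 higher, or 39.7% against 26.3% of all tested genes, and the median log2 fold change was -0.30. With library totals alone the split was 16 lower and 22 higher, with a median of 0.16.

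Genes that handle the products of fructose and sorbitol were in part lower in IRF3-2D liver. Of 7 tested genes of the fructose and polyol list, 4 were called lower (Glyctk, Sord and Aldh2 among them), and the median was -0.42 (1 lower, 1 higher and 0.04 with library totals alone). Glyctk, the glycerate kinase gene, fell 1.60-fold and Sord, the sorbitol dehydrogenase gene, 1.57-fold, though Sord shares 35.9% of its words with other genes and both calls were lost with library totals alone (log2 fold changes -0.23 and -0.20). The call of Sord was also lost without Ctrl replicates 2 or 3 and without IRF3-2D replicate 1 or 2 (adjusted p of at most 0.107 by edgeR). Aldh2, the gene of mitochondrial aldehyde dehydrogenase, fell 1.34-fold at an adjusted p of 0.0487 by edgeR, which was lost without any 1 of the same 4 libraries and with no filter on low counts (adjusted p = 0.0631) and came to a log2 fold change of 0.04 with library totals alone. Tkfc, whose product phosphorylates glyceraldehyde from fructose, did not pass the test at 945 ± 113 and 1019 ± 130 CPM (SD, n = 3 each; log2 fold change 0.11, adjusted p = 0.581 by edgeR).

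Of 12 tested glycolytic enzyme genes 2 were called lower, among them the muscle-type phosphofructokinase gene Pfkm, and the median was -0.43 (1 lower, 4 higher and 0.03 with library totals alone). Pfkm fell 1.53-fold, with means of 19.9 ± 0.607 CPM in Ctrl and 13.0 ± 2.18 CPM in IRF3-2D (SD, n = 3 each; adjusted p = 0.0230 by edgeR), a call lost with library totals alone (log2 fold change -0.16) and without replicate 2 or 3 of either group (-0.62 to -0.54). Ldha, the lactate dehydrogenase gene, was listed at 5.29 ± 0.666 and 2.81 ± 3.28 CPM (SD, n = 3 each; log2 fold change -0.91, adjusted p = 0.453 by edgeR). Of 2 tested genes of the hexokinase list, 0 were called by edgeR, DESeq2 or limma-voom, with 0 at an unadjusted p under 0.05; 1 was called higher with library totals alone. Hk1 had a log2 fold change of 1.02 (SE 0.96) at no more than 35 counts in a library. Among 4 tested hexose transporter genes Slc2a9, whose product carries urate and hexoses, fell 1.83-fold (adjusted p = 0.00154 by edgeR).

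**Figure D4:**
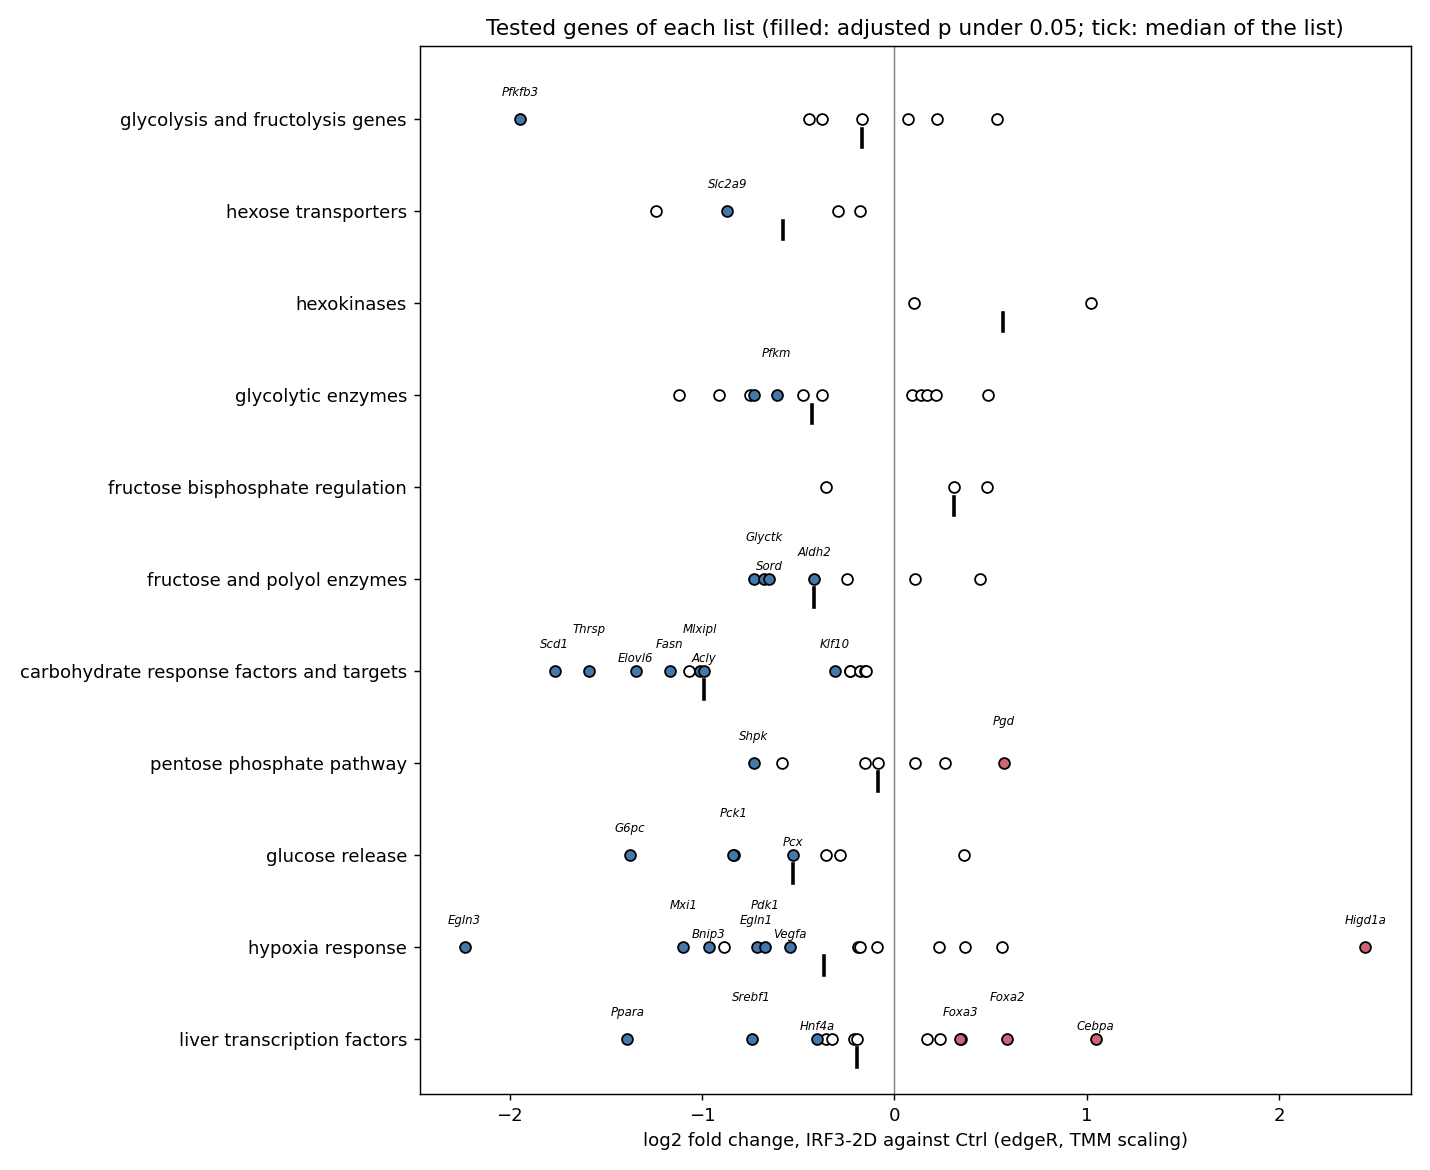
Log2 fold change of IRF3-2D against Ctrl with TMM scaling (x axis) for every tested gene of the 8 listed glycolysis and fructolysis genes and of 10 lists of related genes (y axis). Filled points passed an adjusted p under 0.05 (blue lower, red higher) and most of them are named, and short ticks give the median of a list, which is -0.17 for the 7 measured genes and -0.99 for the carbohydrate response list.

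ChREBP is known to control Pklr and Khk among many genes of sugar and fat synthesis. Of 13 tested genes of the carbohydrate response list 7 were called lower, with a median of -0.99 (6 lower and a median of -0.54 with library totals alone). Mlxipl, the gene of ChREBP, was measured at 268, 331 and 269 CPM in Ctrl and 143, 133 and 154 CPM in IRF3-2D, a fall of 2.02-fold with no overlap (log2 fold change -1.01, SE 0.12, adjusted p = 0.00114 by edgeR). The lipogenic genes Thrsp (3.01-fold), Elovl6 (2.54-fold), Fasn (2.25-fold) and Acly (1.99-fold) fell too. The 95% interval of Mlxipl was -1.29 to -0.74. Whether the changes of Mlxipl, Khk and Pklr differ was not tested, nor was any part of ChREBP in the values of these genes.

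In glucose release, the opposite route, 3 of 7 tested genes fell, with a median of -0.53 (2 lower, 1 higher and -0.07 with library totals alone). G6pc, the glucose phosphatase gene, fell 2.59-fold, Pck1, which encodes the enzyme that makes phosphoenolpyruvate, 1.79-fold and Pcx, the pyruvate carboxylase gene, 1.44-fold. The call of Pcx was lost with library totals alone (-0.07), without Ctrl replicate 3 and without IRF3-2D replicate 1 or 2. In the pentose phosphate pathway, which leaves glycolysis at glucose phosphate, 1 of 7 tested genes rose, Pgd (1.48-fold, adjusted p = 0.00295 by edgeR), and 1 fell, the sedoheptulokinase gene Shpk (1.66-fold, adjusted p = 0.00302), against 3 and 1 with library totals alone.

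Pfkfb3 is a known target of hypoxia-inducible factors. Of 14 tested genes of the hypoxia list 6 were called lower and 1 higher, against 13.1% and 13.2% of all tested genes. The median was -0.37 (3 lower, 3 higher and 0.09 with library totals alone). The list summed to 706 to 874 CPM in Ctrl and 760 to 873 CPM in IRF3-2D. Higd1a alone held 45.6 to 57.0 CPM of the Ctrl sums and 280 to 293 CPM of the IRF3-2D sums. The similar sums therefore do not show the level of the other genes of the list. Egln3, which encodes an oxygen-sensing prolyl hydroxylase, fell 4.71-fold, with means of 83.8 ± 7.29 CPM in Ctrl and 17.8 ± 2.05 CPM in IRF3-2D (SD, n = 3 each; adjusted p = 4.88e-05 by edgeR). Mxi1 (2.14-fold) and Bnip3 (1.95-fold, with 20.3% of its words shared) were lower as well. Higd1a, a mitochondrial protein gene, rose 5.46-fold (adjusted p = 2.54e-05 by edgeR). Hif1a itself did not pass the test (log2 fold change -0.19, adjusted p = 0.223 by edgeR). The part of hypoxia-inducible factors in the fall of Pfkfb3 was not tested.

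Among 13 tested liver transcription factor genes 3 were called lower and 3 higher (2 and 7 with library totals alone). Ppara, the gene of the receptor that responds to fatty acids, fell 2.62-fold and Srebf1, which encodes the lipogenic factor SREBP1, fell 1.67-fold. Cebpa rose 2.07-fold and Foxa3 1.27-fold, though the call of Cebpa was lost without IRF3-2D replicate 1 (adjusted p = 0.0518 by edgeR) and that of Foxa3 without Ctrl replicate 3 or any 1 IRF3-2D library (adjusted p of at most 0.0643).

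Pfkfb3 is also expressed by endothelial and immune cells. The called endothelial markers were lower, while the called markers of Kupffer cells and macrophages were higher, the direction opposite to Pfkfb3. In whole tissue, fewer cells of a type and less RNA per cell cannot be told apart. Of 11 tested endothelial markers 5 were called lower (Ehd3 by 1.67-fold and Tie1 by 1.44-fold, the latter lost without IRF3-2D replicate 2 or 3), and the list summed to 541 to 563 CPM in Ctrl and 356 to 480 CPM in IRF3-2D. With library totals alone 0 endothelial markers were lower and 1 was higher. Among 13 markers of Kupffer cells and macrophages 5 rose, Mpeg1 (4.14-fold) and C1qb (1.62-fold) among them, and the list summed to 591 to 711 CPM and 1003 to 1370 CPM (9 higher with library totals alone). Mpeg1 alone held 103 to 163 CPM of the Ctrl sums and 439 to 561 CPM of the IRF3-2D sums, so the rise of the sum leans on that gene. Of 9 tested stellate cell markers 1 was lower, Reln (1.64-fold; with library totals alone the call was lost at -0.27, and 0 were lower and 1 higher), with sums of 220 to 283 and 190 to 270 CPM and Pdgfrb at 0 in every library. Among 6 monocyte and dendritic cell markers Ly6c2 was higher (8.21-fold, a call lost with limma-voom and without IRF3-2D replicate 2, log2 fold changes 2.86 and 2.59). Ly6c2 had only 8, 3 and 9 counts in Ctrl and 74, 102 and 27 in IRF3-2D, so its fold is imprecise (95% interval 2.87 to 23.5). It also shares 23.7% of its words with other genes. Of the lymphocyte (4), neutrophil (2), cholangiocyte (6) and erythroid (5) markers tested, 0 were called by edgeR or limma-voom and 1 cholangiocyte marker by DESeq2, with 2 cholangiocyte markers at an unadjusted edgeR p under 0.05. The part of these cells in the fall of Pfkfb3 was not tested.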

How the data were processed

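Liver RNA of 6 samples was sequenced, 3 of the Ctrl and 3 of the IRF3-2D group, from poly-A selected, strand-specific libraries, per the labels' protocols. The deposited table holds estimated counts for each gene and was not normalized. The submitters' processing notes list Salmon 1.2.1, GRCm38 and mm10 but no role for any of them; annotation, strand setting and filters: not given in the sources used here. All values were whole numbers and were used as they stand. Columns were matched to samples by the library name in the labels. Of 20894 identifiers 20817 were matched to GENCODE M21. Nothing states that replicates came from separate mice, and p-values reflect only how far these samples differ, possibly for technical reasons. No replicates agreed within sampling noise (chi-square per degree of freedom 20.1 to 117).

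Genes kept by filterByExpr (10802) were tested with edgeR 4.0.16 in R 4.3.3 by the quasi-likelihood F-test (TMM scaling; group as the only term), with Benjamini-Hochberg adjustment over all tested genes and a threshold of 0.05. The test was tried on simulated counts. Each standard error was obtained by dividing the log2 fold change by the root of F, and 95% intervals from these with the test's degrees of freedom. Levels per kilobase use merged exons of GENCODE M21. Ratios were formed within a library after adding 0.1 CPM per kilobase. For each gene, the share of 31-base words found in other genes' transcripts too was computed from GENCODE M21. Promoter windows are from RefSeq on GRCm38.p6, matched by symbol for all 8 genes. Alternatives were DESeq2 1.42.0, limma-voom (limma 3.58.1), other scalings and filters, the replicate number as a block and leaving out each library.

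The genes and lists were chosen with earlier results of these data known. Named were the 8 genes, those that the series title or the route calls for, up to 4 called genes per related list with the smallest adjusted p (or the gene with the smallest p where none was called) and up to 2 per marker list. Pfkfb2, Pfkp, Hif1a, Fbp1, Gpd1, Alb and Pdgfrb were named after their values were seen. Slc2a2 was not analysed here, nor was its ratio to Slc2a1. Some named genes and 1 ratio are not reported here, but count in the lists and in the adjustment over 4 ratios.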

Additional observations from a re-analysis of the deposited data

How the results depend on the processing

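Pfkfb3 was called lower in all 14 alternatives, with log2 fold changes of -2.18 to -1.48 and adjusted p of at most 0.0186. Of 98 comparisons of the 7 genes with an alternative, 85 kept direction and call. Pfkfb1 gained a call with DESeq2 (0.50), limma-voom (0.55), library totals alone (0.98), the filter at a mean count of 50 (0.52) and, leaving out Ctrl replicate 3, 0.69; left-out libraries gave 0.37 to 0.69. Leaving out 1 library gave -0.12 to 0.18 for Gckr (below 0 without Ctrl replicate 1 or IRF3-2D replicate 3), -0.87 to -0.23 for Pfkl and -0.62 to -0.23 for Pklr. With library totals alone, Gckr (0.52) and Gpi1 (0.67) gained a call and Khk (0.28) and Pklr (0.070) changed sign, as did Aldh2 (0.036). Of the 7 genes, 0 to 1 were higher and 1 to 3 lower with a library left out; higher were 1 with DESeq2, limma-voom or a mean count of at least 50, and 3 with library totals alone. Over all genes, 4500 were higher and 571 lower with library totals alone, 1038 and 1128 with the replicate block, and 851 to 1312 and 920 to 1363 with a library left out. Related genes numbered 22 higher and 16 lower with library totals alone, 2 to 6 and 18 to 27 with a library left out. Samples shared only a replicate number (correlations of deviations -0.03 to 0.10). In the block fit Pfkfb3 stayed called, the calls of Pfkm (-0.62, adjusted p = 0.0560), Ly6c2 (2.88, 0.0573) and Aldh2 (-0.41, 0.0567) were lost, and the Pfkfb3 to Pfkfb1 ratio differed by -2.44 between paired libraries (exact sign-flip test, p = 0.25, the smallest possible). With a library left out, some values near 0 changed sign: Tkfc (-0.011 to 0.19) without IRF3-2D replicate 3, Pkm (-0.055 to 0.30) without IRF3-2D replicate 1 or 2 (-0.01 for the latter) and the Pfkl to Pfkp ratio (-0.85 to 0.079) without IRF3-2D replicate 2. The cause was not tested. Low counts limit Hk1, Ldha, Pkm and Ly6c2.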

Other observations

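Several genes of sugar metabolism were listed at 0 in all 6 libraries: Slc2a3, Slc2a8, Hk2, Ldhb, Akr1b3 and Me1. Ldha had 63, 56 and 77 counts in Ctrl and 7, 21 and 100 counts in IRF3-2D, and was called lower without IRF3-2D replicate 3 (log2 fold change -2.50, adjusted p = 0.0262 by edgeR). Kdm3a had 27, 77 and 52 counts in Ctrl and 0, 0 and 105 in IRF3-2D. In both genes the third IRF3-2D library was the highest of all 6. Slc2a6 was at 0 in all 3 Ctrl libraries and at 8, 9 and 4 counts in IRF3-2D, below the filter on low counts. These genes were chosen after their values were seen.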
